A study of Mus musculus with 2 samples.

Results

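RNA polymerase subunits and general transcription factors were followed in CD4+ T cells that had been activated through their antigen receptor. The members were the protein-coding mouse genes whose symbols start with Polr1, Polr2, Polr3, Gtf2, Gtf3 or Taf followed by a digit, together with Ubtf and Rrn3, 76 genes in all. Reads that cross a splice junction could be assigned to 65 of them, out of 9689 genes named in the whole series. The study compared 2 RNA sequencing libraries. The stimulated library came from cells kept for 4 h with immobilised anti-CD3e and anti-CD28 antibodies, each at 2 ug/ml, and the mock library from mock-treated cells. Both were made from CD4+ T cells enriched from the spleens of male C57BL/6JJcl mice, with cells of 4 animals pooled for each library. Each condition is therefore 1 library of pooled animals, no test across replicates was possible, and every interval given covers the counting of reads only.

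The nucleus divides transcription among 3 RNA polymerases. RNA polymerase I (Pol I) makes the large ribosomal RNA precursor, RNA polymerase II (Pol II) makes messenger RNA, and RNA polymerase III (Pol III) makes transfer RNA, 5S ribosomal RNA and other short RNAs. Each enzyme has subunits of its own and shares others, and each needs general transcription factors to find its promoters. Rrn3, Ubtf and the SL1 complex serve Pol I, the Gtf2 factors and the TFIID complex of Tbp and Taf proteins serve Pol II, and the Gtf3 factors serve Pol III. A resting T cell is small and makes little RNA and protein, and an activated one grows and raises the production of ribosomes and transfer RNA before it divides.

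The stimulated library held 1341197 junction reads on 97395 junctions and the mock library 1147232 reads on 97850 junctions. A gene's value was the sum over its named junctions, and the ratio of stimulated to mock was taken per 1000000 junction reads (RPM) with an exact (Clopper-Pearson) 95% interval. A gene was measured when both libraries together held at least 20 reads, and was called higher or lower when the ratio was at least 2 or at most 0.5 and the interval excluded 1. Of 7205 measured genes, 17.1% were called higher, 25.1% lower and 42.2% either way, and the median log2 ratio was -0.21. Other scalings of the libraries put the point of no change at a log2 ratio of -0.24 or -0.23, so that each log2 ratio given here would be higher by the size of that shift. Intervals and the directions of junctions are given for scaling by total junction reads. With the other scalings, an interval that ends just below 1 can hold 1, and a junction just below 1 can stand above it. With trimmed-mean (TMM) scaling 1563 genes (21.7%) were called higher and 1410 (19.6%) lower, so the balance of calls over all genes turned round. All 8 T cell markers were measured, with 3 above and 5 below a ratio of 1, among them Cd4 with 285 stimulated and 650 mock reads and Cd5 with 1743 stimulated and 766 mock reads, and they summed to 5927 reads in the stimulated library and 4740 in the mock library. The 7 B cell markers summed to 158 stimulated and 194 mock reads, and the 7 myeloid markers to 40 stimulated and 57 mock reads, with Lyz2 and Flt3 at 0 in the stimulated library and 15 and 8 in the mock library, but Cybb at 19 stimulated and 5 mock reads. Of the 4 erythroid markers 3 had named junctions, summing to 168 stimulated and 78 mock reads, and Cd8b1 of CD8 T cells had 5 stimulated and 16 mock reads, while Klrk1 was the NK cell marker with named junctions, at 2 stimulated and 0 mock reads. The part of these cells in the results was not tested. Fewer cells of a type and less RNA per cell cannot be told apart in such libraries.

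Of the 76 members, 64 were measured, 1 (Taf9) was under the minimum and 11 had no named junction: Polr1d, Taf1a, Polr2c, Polr2h, Polr2k, Polr2l, Gtf2a1l, Taf10, Taf13, Taf7 and Taf7l. The stimulated library held 10089 reads on members and the mock library 7380. Among the measured members 16 (25%) were called higher, against a background of 17.1%, and 3 (4.69%) lower, against 25.1%. With TMM scaling 22 members (34.4%) were called higher, against 21.7%, and 3 lower, against 19.6%. The other 45 were called neither. Over the 64 measured members the median log2 ratio was 0.36, beside -0.21 over all measured genes. The calls were unevenly spread over the machines: 6 of 9 measured Pol I members were higher, 5 of 17 Pol III members, 3 of 15 Gtf2 members, 2 of 9 Pol II subunits and 0 of 14 TFIID and SAGA Taf members. The 3 members called lower were Gtf2i, Gtf2ird2 and Polr3gl. The calls of Polr2d, Gtf2h5, Gtf2ird2 and Gtf3c4 all rested on few reads. Without its most-read junction each of these genes fell under the 20-read minimum, so its call was lost.

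**Figure D1:**
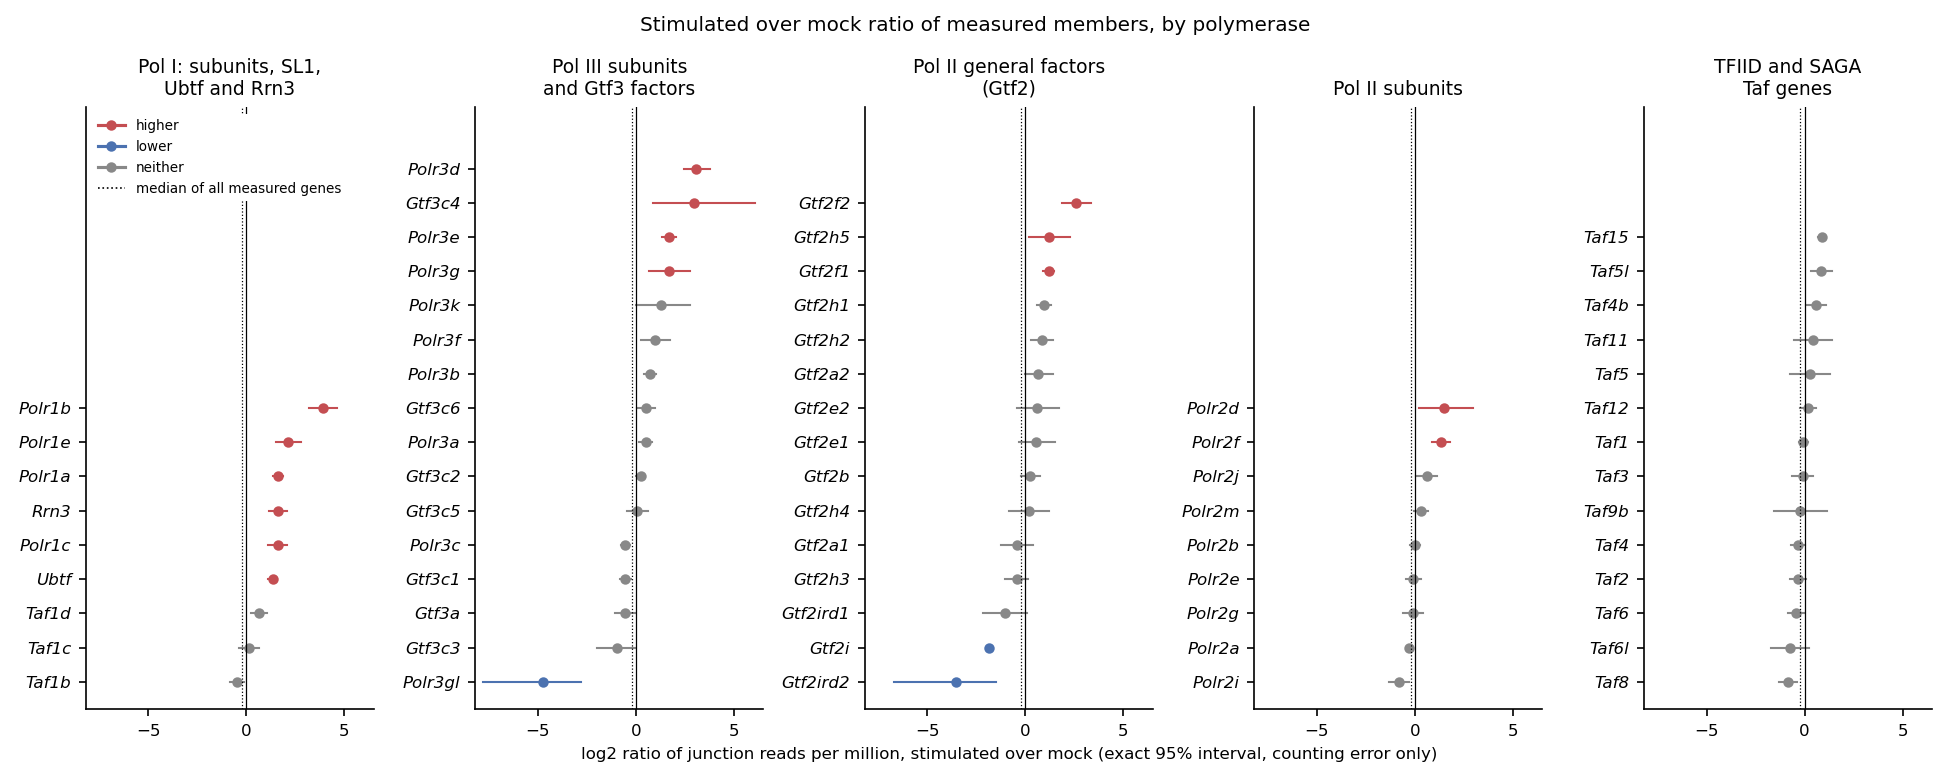
Log2 ratio of stimulated over mock RPM for the measured members (points; 1 of the 64 is not shown), with exact 95% intervals for counting error (lines), in 5 panels by polymerase. Red members were called higher, blue ones lower and grey ones neither; the Pol I panel lies mostly to the right of 0, and the Taf panel straddles it with no member called.

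Sequences were chosen for 3 results. The first is a pair of Gtf2i messages that differ at 1 splice site, whose balance differed between the libraries. The bases kept only in the long form are in capitals. They lie at mm9 chr5:134719458-134719469 on the minus strand, number 12, add 4 codons and fall inside the coding sequence.
Gtf2i long form: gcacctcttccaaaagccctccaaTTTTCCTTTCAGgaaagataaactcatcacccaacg
Gtf2i short form: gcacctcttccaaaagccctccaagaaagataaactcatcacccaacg
The next is a coding cassette exon of Ubtf, exon 8 of 21 in the transcript that holds it, at mm9 chr11:102172240-102172350 on the minus strand. It has 111 bases, 37 codons, and is shown because Ubtf was called higher and has forms with and without it.
Ubtf cassette exon: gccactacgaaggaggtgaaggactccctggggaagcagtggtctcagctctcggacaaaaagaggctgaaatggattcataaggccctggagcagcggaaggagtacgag
The last are the 250 bases before the start sites of Rrn3, which was higher, and Polr3gl, which was lower, with the E-box CACGTG in capitals. They are from RefSeq on GRCm38.p6, at chr16:13780449-13780698 on the plus strand and chr3:96594182-96594431 on the minus strand.
Rrn3 promoter: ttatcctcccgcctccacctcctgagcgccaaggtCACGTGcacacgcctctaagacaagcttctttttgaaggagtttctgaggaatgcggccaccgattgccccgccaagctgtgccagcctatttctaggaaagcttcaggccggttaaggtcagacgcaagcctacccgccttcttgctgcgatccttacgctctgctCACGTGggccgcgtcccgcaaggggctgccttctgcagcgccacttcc
Polr3gl promoter: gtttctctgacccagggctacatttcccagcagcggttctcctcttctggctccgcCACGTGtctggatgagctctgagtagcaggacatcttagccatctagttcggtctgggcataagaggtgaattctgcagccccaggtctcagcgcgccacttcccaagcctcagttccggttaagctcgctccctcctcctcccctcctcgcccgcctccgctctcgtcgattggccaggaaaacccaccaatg

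The messages of Pol I subunits, and of Rrn3 and Ubtf, which bring the enzyme to its promoter, were higher in the stimulated library. All 4 measured Polr1 subunits were called higher, beside 17.1% of all measured genes. These subunits had 1255 reads in the stimulated library and 269 in the mock library, a ratio of sums of 3.99 (95% interval 3.50 to 4.57). Rrn3 and Ubtf were higher too, and the 3 measured SL1 subunits were called neither. The median log2 ratio over the 9 measured Pol I members was 1.59, and their summed ratio was 2.56 (2.36 to 2.77). Ratios of single Pol I members ran from 0.723 to 14.8, a spread that the interval of the sum does not cover.

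Polr1b encodes the second-largest subunit, which forms the catalytic centre together with Polr1a. It had 328 reads in the stimulated library and 19 in the mock library, and its named introns span mm9 chr2:128927000-128950949. This was the highest ratio of any measured member, 14.8 (9.30 to 24.8), and all 13 of its junctions with at least 10 reads were higher. Polr1a, the largest subunit, had 627 stimulated and 176 mock reads over mm9 chr6:71859234-71928408. Its ratio was 3.05 (2.57 to 3.62), and 27 of its 29 junctions with at least 10 reads were higher. Polr1e encodes a subunit of the peripheral pair that helps Pol I initiate. It had 131 stimulated and 26 mock reads over mm9 chr4:45031665-45044812, a ratio of 4.31 (2.81 to 6.84). Polr1c, which belongs to the assembly platform of both Pol I and Pol III, had 169 stimulated and 48 mock reads over mm9 chr17:46381170-46384843, a ratio of 3.01 (2.17 to 4.24). The intervals of all 4 subunits lay wholly above 2.

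Rrn3 encodes the factor that links Pol I to the factors waiting on the ribosomal gene promoter. It had 184 stimulated and 52 mock reads over mm9 chr16:13780933-13813182, a ratio of 3.03 (2.21 to 4.20), and all 9 of its junctions with at least 10 reads were higher. Ubtf encodes the upstream binding factor, a protein with several DNA-binding HMG boxes that coats active ribosomal genes. It held the most reads of the Pol I members in the stimulated library, 632 against 213 in the mock library, over mm9 chr11:102168081-102180161. Its ratio was 2.54 (2.17 to 2.98), and 18 of its 19 junctions with at least 10 reads were higher. The SL1 subunits, which seat Tbp on the ribosomal promoter, ran otherwise. Taf1b had 115 stimulated and 136 mock reads, Taf1c had 73 stimulated and 57 mock reads, and Taf1d had 135 stimulated and 74 mock reads. Their ratios were 0.723 (0.559 to 0.934), 1.10 (0.764 to 1.58) and 1.56 (1.17 to 2.10), so that 1 interval lay below 1, 1 held it and 1 lay above it.

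Per named junction, which takes out the number of introns in a gene, the levels of the 4 Polr1 subunits lay between 9.77 and 17.5 RPM in the stimulated library and between 1.18 and 5.23 in the mock library. The ranges do not overlap, but they rest on the same reads as the calls, and genes are not replicates of a condition. How often other sets of genes have such ranges was not computed. Polr1b had the highest level of the 4 in the stimulated library, 17.5 RPM, and the lowest in the mock library, 1.18 RPM. Over the 9 measured Polr2 subunits the same quantity ran from 5.72 to 39.5 in the stimulated library and from 2.03 to 32.3 in the mock library.

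**Figure D2:**
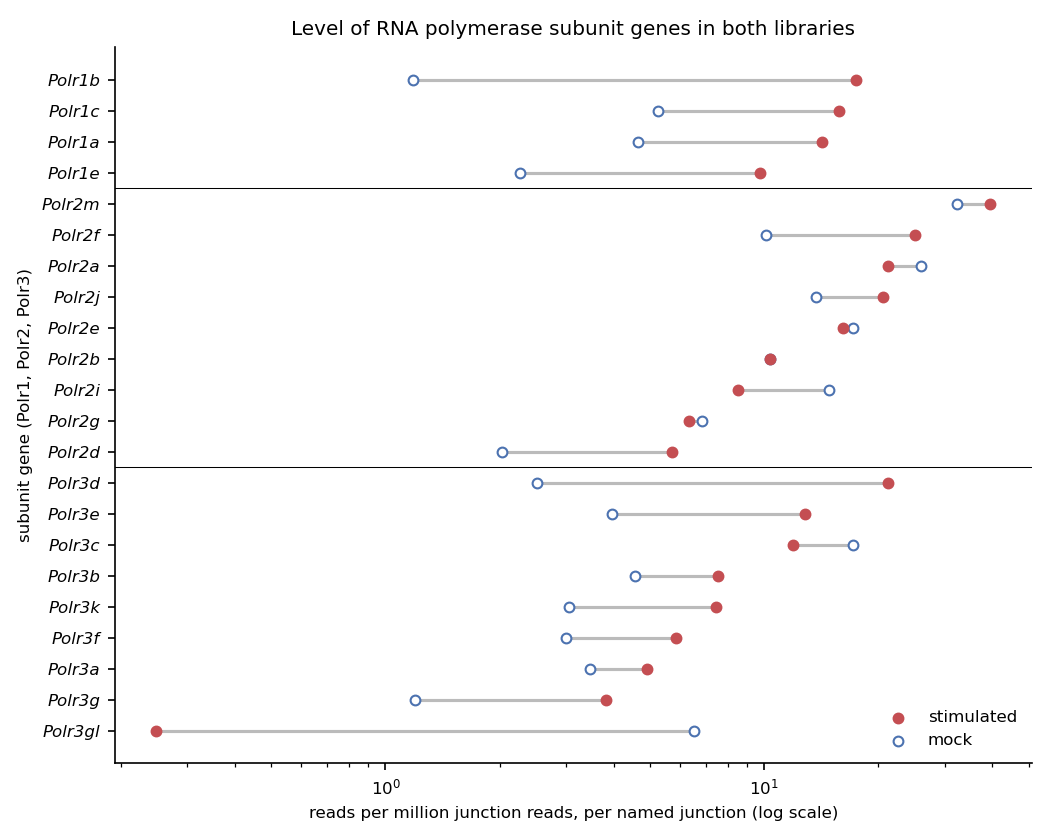
Level of the measured polymerase subunit genes (1 is not shown), in RPM per named junction on a log scale, with the stimulated library as filled red points and the mock library as open blue points joined by a grey line. The 4 Polr1 genes all lie further right in the stimulated library, the points of Polr2b, Polr2e and Polr2g nearly meet, and the stimulated point of Polr3gl lies furthest to the left.

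Pol III subunits moved in both directions. Of the 10 Polr3 subunits, all measured, 4 (40%) were called higher and 1 (10%) lower, beside 17.1% and 25.1% of all measured genes. These subunits had 1407 stimulated and 757 mock reads in all and a ratio of sums of 1.59 (1.45 to 1.74). The 7 Gtf3 factors had 812 stimulated and 718 mock reads, a ratio of 0.967 (0.874 to 1.07). Of these factors 1 (14.3%) was called higher, a share below the 17.1% of all measured genes. Over all 17 members the median log2 ratio was 0.51, and single log2 ratios ran from -4.72 to 3.08.

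Polr3d encodes a subunit of the pair that resembles TFIIF and acts in initiation and termination, and its partner is Polr3e. Polr3d had 227 stimulated and 23 mock reads over mm9 chr14:70839386-70843139. The ratio was 8.44 (5.49 to 13.6), and all 8 of its junctions were higher. Polr3e had the most reads of the Pol III members in the stimulated library, 343 against 91 in the mock library, over mm9 chr7:128066483-128088989. Its ratio was 3.22 (2.55 to 4.11), with 12 of 13 junctions of at least 10 reads higher. Both partners were thus higher with intervals wholly above 2. The catalytic subunits differed less: Polr3a had 197 stimulated and 119 mock reads, a ratio of 1.42 (1.12 to 1.79). Polr3b had 263 stimulated and 136 mock reads, a ratio of 1.65 (1.34 to 2.05). Both intervals lay above 1, and neither ratio reached 2.

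Polr3g and Polr3gl are paralogs that take the same place in the enzyme, in the subcomplex with Polr3c and Polr3f that is needed to start transcription, so an enzyme holds the one or the other. Polr3g had 41 reads in the stimulated library and 11 in the mock library, over mm9 chr13:81815122-81849856. Polr3gl had 2 reads in the stimulated library and 45 in the mock library, over mm9 chr3:96382512-96398006. The libraries thus stood in opposite order for the pair. The ratio of Polr3g was 3.19 (1.61 to 6.88), and Polr3gl was 26.3-fold lower in the stimulated library, with a counting interval of 6.87 to 224. Both calls were lost from the most-read junction alone, because it held fewer than the 20 reads needed to be measured. That junction had 12 stimulated and 4 mock reads for Polr3g, a log2 ratio of 1.36. For Polr3gl it had 1 stimulated and 15 mock reads, a log2 ratio of -4.13. With a minimum of 50 reads Polr3gl was not measured. Of the reads on both genes, Polr3g took 41 of 43 in the stimulated library (95.3%, 84.2 to 99.4) and 11 of 56 in the mock library (19.6%, 10.2 to 32.4). Per named junction, Polr3g had 3.82 RPM in the stimulated library and 1.20 in the mock library, and Polr3gl had 0.249 in the stimulated library and 6.54 in the mock library. The 2 stimulated reads of Polr3gl lay on 2 junctions, whereas the mock reads lay on all 6 of its named junctions.

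**Figure D3:**
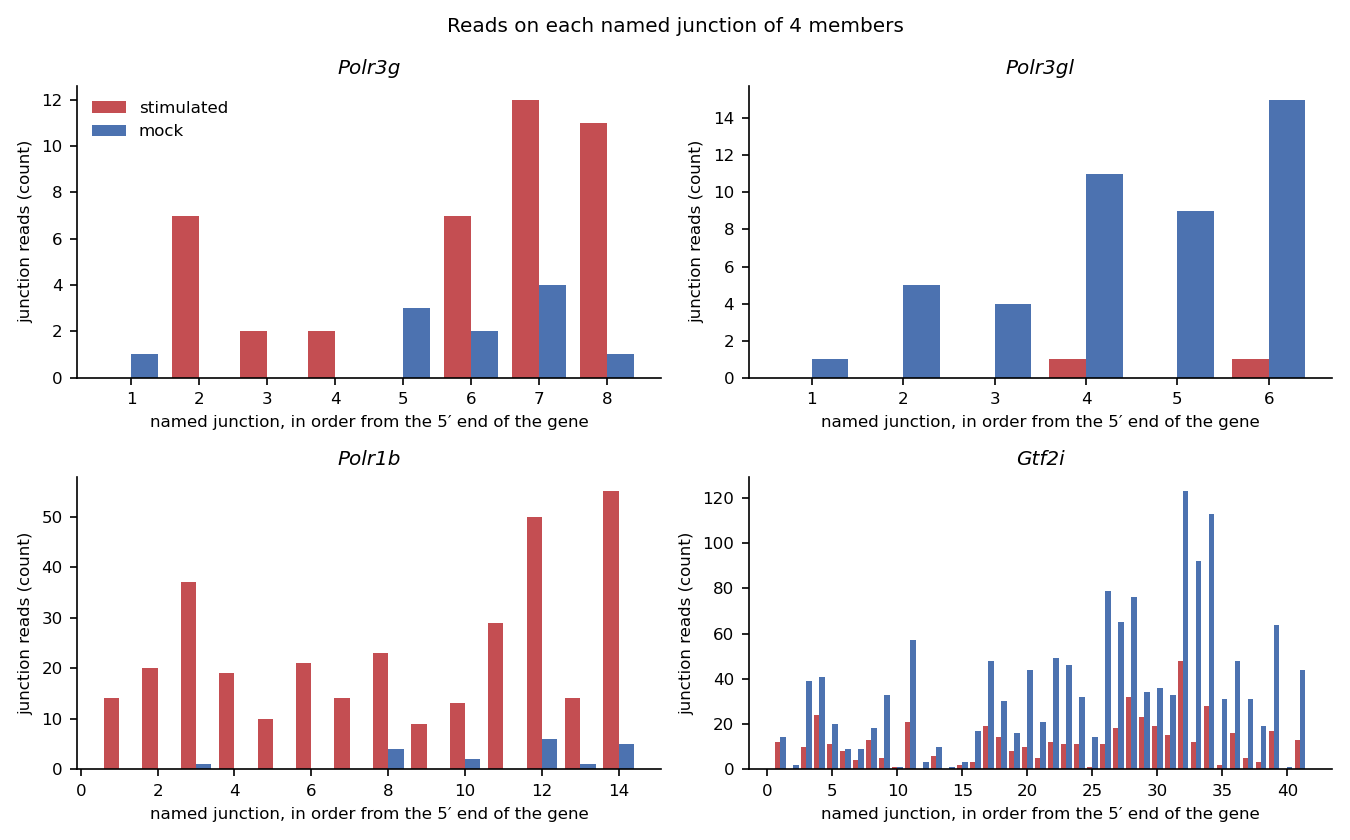
Junction reads (counts, linear axis from 0) on each named junction of Polr3g, Polr3gl, Polr1b and Gtf2i, ordered from the 5′ end of the gene, with red bars for the stimulated library beside blue bars for the mock library. Polr1b is taller in red on all 14 junctions and Polr3g on 6 of 8, and Polr3gl and Gtf2i are taller in blue on every junction with at least 10 reads.

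The other partners in that subcomplex were Polr3c and Polr3f. Polr3c had 239 stimulated and 296 mock reads, a ratio of 0.691 (0.580 to 0.822), and Polr3f 55 stimulated and 24 mock reads, a ratio of 1.96 (1.19 to 3.31). Polr3f lay just under the 2-fold line and was called neither. Polr3k, a small subunit with a part in termination, had 20 stimulated and 7 mock reads, and its ratio of 2.44 was not called because its interval (0.993 to 6.84) held 1. Both were called higher with the other scalings. Among the factors, TFIIIA, encoded by Gtf3a, binds the 5S gene, and TFIIIC, of Gtf3c1 to Gtf3c6, binds transfer RNA genes. Gtf3c4 was the factor called higher, on 18 stimulated and 2 mock reads over mm9 chr2:28683087-28695402, a ratio of 7.70 (1.84 to 68.4). When junctions were also placed by the build shift of a neighbouring gene, it had 18 stimulated and 3 mock reads and a ratio of 5.13. The factor with the most reads was Gtf3c2, with 338 stimulated and 245 mock reads, in a gene that overlaps a read-through model, so its reads are uncertain. Gtf3a, with 60 stimulated and 76 mock reads, Gtf3c1, with 191 stimulated and 240 mock reads, and Gtf3c3, with 16 stimulated and 27 mock reads, had intervals below 1 without reaching a call. Their ratios were 0.675, 0.681 and 0.507. Gtf3c6 had 120 stimulated and 72 mock reads, a ratio of 1.43 (1.06 to 1.94), and Gtf3c5 had 69 stimulated and 56 mock reads, a ratio of 1.05. The TFIIIC genes thus stood on both sides of 1.

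Summed over the Pol II subunits, the reads differed little between the libraries. The 9 measured Pol II subunits had 1788 stimulated and 1583 mock reads, a ratio of sums of 0.966 (0.902 to 1.03), and 7 were called neither. Polr2a and Polr2b held most of these reads. Ratios of single subunits ran from 0.574 to 2.81, a spread that the interval of the sum does not cover. Of the 9 intervals, 3 lay above 1, 2 below it and 4 held it. The median log2 ratio of the 9 subunits was -0.00060, above the -0.21 of all genes, and it was 0.24 with TMM scaling. Polr2a encodes the largest subunit with its repeated tail, the site of many regulatory phosphorylations. It held the most reads of the Pol II subunits, 795 in the stimulated library and 833 in the mock library, a ratio of 0.816 (0.740 to 0.901), and 21 of its 28 junctions with at least 10 reads were lower. The log2 ratio of Polr2a, -0.29, was close to the -0.21 of all measured genes. Polr2b, the second-largest subunit, had 305 stimulated and 261 mock reads and a ratio of 0.9996 (0.845 to 1.18). The intervals of these catalytic subunits lay wholly below 2, while those of Polr1a and Polr1b lay wholly above it.

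Of the 9 measured Pol II subunits, 2 (22.2%) were called higher, Polr2f and Polr2d, beside 17.1% of all measured genes. Polr2f is one of the subunits that all 3 polymerases share. It had 168 stimulated and 58 mock reads over mm9 chr15:78971865-78982018, a ratio of 2.48 (1.83 to 3.40), and all 4 of its junctions with at least 10 reads were higher. Polr2d forms the stalk of Pol II with Polr2g. It had 23 stimulated and 7 mock reads, a ratio of 2.81 (1.17 to 7.76), whereas Polr2g had 68 stimulated and 63 mock reads, a ratio of 0.923. Polr2e, also shared by the 3 enzymes, had 130 stimulated and 118 mock reads and a ratio of 0.942. Polr2k, another shared subunit, had no junction named by spacing, and the neighbour's shift gave it 39 stimulated and 8 mock reads, a ratio of 4.17 (1.92 to 10.3). Polr1d, shared by Pol I and Pol III, had 24 stimulated and 8 mock reads by that route, a ratio of 2.57 (1.12 to 6.61). Of the shared subunits with junctions named by spacing, Polr1c and Polr2f were called higher and Polr2e was not. Polr1d and Polr2k met the line for higher only by the neighbour's shift. That route was chosen after seeing the data, and no share over all genes was computed for it. The other Pol II subunits were Polr2i, a small zinc-binding subunit, with 57 stimulated and 85 mock reads and a ratio of 0.574 (0.403 to 0.812), Polr2j, of the assembly platform, with 83 stimulated and 47 mock reads, and Polr2m, an associated protein, with 159 stimulated and 111 mock reads.

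Among the Gtf2 general factors, both subunits of TFIIF were called higher and the TFII-I gene was called lower. TFIIF escorts Pol II to the promoter. Gtf2f1, its large subunit, had 396 stimulated and 150 mock reads over mm9 chr17:57143055-57150531. The ratio was 2.26 (1.87 to 2.74), with all 12 junctions higher. Gtf2f2, its small subunit, had 131 stimulated and 19 mock reads over mm9 chr14:76297461-76410486, a ratio of 5.90 (3.63 to 10.1), with all 4 junctions of at least 10 reads higher. TFIIH opens the promoter and phosphorylates the polymerase tail, and also works in DNA repair. Of the 5 measured Gtf2h members of TFIIH, 1 (20%) was called higher, beside 17.1% of all measured genes. That member was Gtf2h5, a small stabilising subunit, with 32 stimulated and 12 mock reads over mm9 chr17:6079912-6084471, a ratio of 2.28 (1.14 to 4.86). Gtf2h3 had 49 stimulated and 57 mock reads, a ratio of 0.735, and Gtf2h4 had 21 stimulated and 16 mock reads, a ratio of 1.12. Gtf2h1 had 249 stimulated and 111 mock reads and a ratio of 1.92 (1.53 to 2.42), and Gtf2h2 had 83 stimulated and 40 mock reads and a ratio of 1.77. Both became calls when the point of no change was moved to that of the other scalings. TFIIA, TFIIB and TFIIE, encoded by Gtf2a1, Gtf2a2, Gtf2b, Gtf2e1 and Gtf2e2, had no call, and Gtf2b had 90 stimulated and 65 mock reads, a ratio of 1.18. The ratios of the 10 Gtf2 members called neither ran from 0.489 to 1.92.

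Gtf2i encodes TFII-I, which despite its name is not a part of the basal machinery and acts as a signal-responsive factor. It had 473 reads in the stimulated library and 1466 in the mock library over mm9 chr5:134714763-134790252, the most mock reads of any measured member. It was 3.62-fold lower in the stimulated library (3.26 to 4.03), and all 35 of its junctions with at least 10 reads were lower. Per named junction it had 8.60 stimulated and 31.2 mock RPM. Its relatives lie beside it on chromosome 5. Gtf2ird2 had 2 stimulated and 20 mock reads over mm9 chr5:134667148-134692005 and was 11.7-fold lower, with an interval of 2.84 to 103. Gtf2ird1 had 12 stimulated and 21 mock reads and a ratio of 0.489 (0.219 to 1.04). All 3 genes had lower RPM in the stimulated library and 2 were called lower, beside 25.1% of all measured genes. Both Gtf2ird genes rest on few reads. The sum over the Gtf2 group depends on Gtf2i: its ratio was 0.691 (0.647 to 0.737) over all 15 measured members, and 1.81 (1.63 to 2.00) over the 12 left without Gtf2i and its relatives, on 1182 stimulated and 559 mock reads.

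The TFIID and SAGA Taf genes held no call in either direction. Their ratios ran from 0.553 to 1.82, and their median log2 ratio was -0.08, or 0.16 with TMM scaling. Taf1, the scaffold of TFIID, had 325 stimulated and 289 mock reads, a ratio of 0.962. Taf15, an RNA-binding protein that is found with a part of TFIID, had the most reads, 856 stimulated and 402 mock reads, and the highest level per junction of any measured member in the stimulated library, 45.6 RPM against 25.0 in the mock library. Its ratio was 1.82 (1.62 to 2.06), just under the 2-fold line, and the other scalings called it higher. They also called Taf5l, with 92 stimulated and 44 mock reads and a ratio of 1.79 (1.24 to 2.62). Taf8, which carries Taf10 into the complex, had 66 stimulated and 102 mock reads and the lowest ratio, 0.553 (0.400 to 0.762). Taf6, part of the histone-like core of TFIID, had 93 stimulated and 108 mock reads, a ratio of 0.737 (0.552 to 0.981). Taf12, another protein of that core, had 111 stimulated and 84 mock reads, a ratio of 1.13, and Taf11 had 25 stimulated and 16 mock reads. Taf2 and Taf3, which touch the promoter and a histone mark, had 103 stimulated against 110 mock reads and 63 stimulated against 58 mock reads. Of the 14 intervals, 3 lay above 1, 2 below it and 9 held it.

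Several Taf genes have paralogs that can stand in for them. Taf4b, best known from the ovary and from B cells, had 90 stimulated and 52 mock reads, and Taf4, its partner, 130 stimulated and 138 mock reads. Taf4b thus took 40.9% of the pair's reads in the stimulated library (34.3 to 47.7) and 27.4% in the mock library (21.2 to 34.3), with intervals that just clear each other. Taf5l, the SAGA form of Taf5, took 81.4% of its pair's reads in the stimulated library and 74.6% in the mock library, with intervals that overlap. Taf6l, the SAGA form of Taf6, took 15.5% in the stimulated library and 18.2% in the mock library, with intervals that overlap widely. Taf9 had 16 stimulated and 2 mock reads, under the minimum, and shares its first exon with Ak6, so its reads are uncertain. It took 59.3% of the reads of its pair with Taf9b in the stimulated library (38.8 to 77.6) and 15.4% in the mock library (1.92 to 45.4). By the neighbour's shift, Taf10 had 8 stimulated and 0 mock reads and Taf7 had 17 stimulated and 7 mock reads, a ratio of 2.08 (0.819 to 5.93). Gtf2ird2 took 14.3% of the reads of its pair with Gtf2ird1 in the stimulated library (1.78 to 42.8) and 48.8% in the mock library (32.9 to 64.9). Of the 6 pairs with reads, Polr3g and Polr3gl had shares with intervals far apart, Taf4b and Taf4 had intervals that barely cleared each other, and the other four had intervals that overlapped.

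Splice choices were described as the share of a splice site's reads taken by each junction. The members held 163 sites used by more than 1 junction, and 28 sites in 14 genes had at least 20 reads in each library. At 1 of them (3.57%) a share differed by at least 20 percentage points with intervals apart, beside 1.49% of 4167 such sites over all named genes. It was the Gtf2i donor at mm9 chr5:134719770, where the long form printed above took 48 of 60 stimulated reads (80.0%, 67.7 to 89.2) and 123 of 215 mock reads (57.2%, 50.3 to 63.9). The short form took 12 stimulated and 92 mock reads. The intervals at splice sites were not widened for the spread between junctions of a gene, 2.02 times the counting variance. Whether these intervals would stay apart when widened was not tested. The message that was lower in the stimulated library thus had a larger share of the form with the extra bases there. A second Gtf2i site, the acceptor at mm9 chr5:134719827, had too few stimulated reads to be counted. There a junction with no annotated name took 1 of 17 stimulated reads (5.88%, 0.149 to 28.7) and 20 of 53 mock reads (37.7%, 24.8 to 52.1), with intervals that overlap.

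At the acceptor after the Ubtf cassette exon, inclusion took 23 of 45 stimulated reads (51.1%, 35.8 to 66.3) and 4 of 18 mock reads (22.2%, 6.41 to 47.6). The intervals overlap and the mock library held fewer reads than the minimum, so the site was not counted. On the other side of the exon the inclusion junction had 4 stimulated and 2 mock reads, beside 22 stimulated and 14 mock reads for the junction that skips it, and the inclusion shares there were 15.4% in the stimulated library and 12.5% in the mock library. The exon's 2 sides thus gave unlike differences. A difference in the use of this exon was not detectable at this depth.

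**Figure D4:**
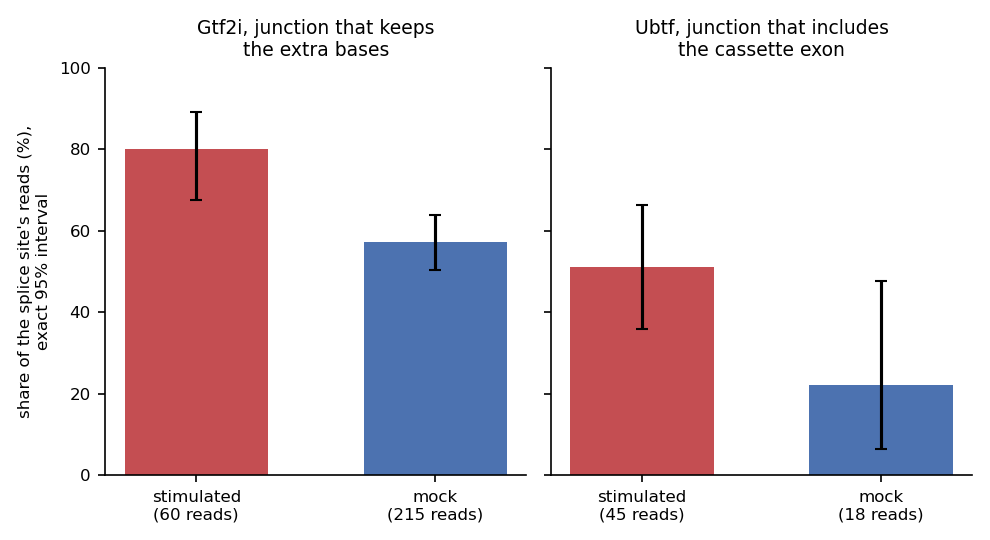
Share of a splice site's reads (percent, bars from 0) on the Gtf2i junction that keeps the extra bases and on the Ubtf junction that includes the cassette exon, with exact 95% intervals, stimulated in red and mock in blue. For Gtf2i the bars stand at 80.0% stimulated and 57.2% mock with intervals apart, and for Ubtf at 51.1% stimulated and 22.2% mock with intervals that overlap.

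The motif CACGTG, the E-box bound by Myc with Max and by other factors of their family, reads the same on both strands. It was searched in the 250 bases before each RefSeq start site. The motif was found for 14 of 66 matched members (21.2%), measured or not. It was found for 10.7% of measured genes and 6.86% of all 27025 genes in the table. Counted by promoter, it was in 16 of 83 member promoters (19.3%) and in 6.02% of all 32851 promoters. By group it was held by 1 of 11 Pol I members (9.09%), 3 of 14 Pol III members (21.4%), 5 of 15 Gtf2 members (33.3%), 5 of 16 Taf members (31.2%) and 0 of 10 Pol II subunits. Rrn3, Gtf2f1 and Gtf2h5 were the members called higher that held it, 3 of 13 matched (23.1%). Polr3gl and Gtf2ird2, both called lower, held it too. In the promoters printed above, the motif starts 215 and 48 bases before the start site of Rrn3 and 194 before that of Polr3gl. Over all genes, 12.3% of those called higher and 10.5% of those called lower held the motif, and the Pol I group, with the most calls for its size, had it in 1 gene.

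Genes that work with the members under other names were taken from a set list of 70, of which 61 were measured, 7 higher, 5 lower and 49 neither, while 2 were under the minimum and 7 had no named junction. The shares called, 11.5% higher and 8.2% lower, were below the 17.1% and 25.1% of all measured genes. Cd3eap, the partner of Polr1e in Pol I, had 48 stimulated and 5 mock reads, a ratio of 8.21 (3.29 to 26.4). Twistnb and Znrd1, the other Pol I subunits on the list, had 15 stimulated against 5 mock reads and 132 stimulated against 73 mock reads, with ratios of 2.57 (0.887 to 9.03) and 1.55 that were not called. Maf1, the repressor of Pol III, had 74 reads in the stimulated library and 229 in the mock library and was 3.62-fold lower (2.77 to 4.77). For Pol III's initiation factor TFIIIB, Bdp1 had 473 stimulated and 206 mock reads, a ratio of 1.96 (1.66 to 2.32), and Brf1 173 stimulated and 193 mock reads, a ratio of 0.767. Snapc4, a subunit of the complex for small nuclear RNA genes, was higher on 183 stimulated and 75 mock reads, a ratio of 2.09, and Snapc5 of the same complex was 2.25-fold lower on 26 stimulated and 50 mock reads.

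Tbp, which all 3 polymerases use, had 73 stimulated and 88 mock reads and a ratio of 0.710, and was called neither. Btaf1, which takes Tbp off DNA, was higher on 584 stimulated and 221 mock reads, a ratio of 2.26. Of the 5 listed TFIIH subunits, all measured, 1 (20%) was called higher, beside 17.1% of all measured genes. It was the kinase Cdk7, with 166 stimulated and 62 mock reads, a ratio of 2.29. The others, Ercc2, Ercc3, Ccnh and Mnat1, were called neither, with ratios of 1.32, 0.981, 1.45 and 1.05. Of the pause and elongation factors, 16 were measured and 12.5% were called higher, beside 17.1% of all measured genes. Those called were Ssrp1, a subunit of the histone chaperone FACT, and Nelfe, of the pausing factor NELF. Ssrp1 had a ratio of 2.39 on 936 stimulated and 335 mock reads, and Nelfe 2.03 on 76 stimulated and 32 mock reads. The other NELF genes on the list, Nelfa, Nelfb and Nelfcd, were called neither, with ratios of 0.808, 0.555 and 0.882. Gpn1, which helps to bring Pol II into the nucleus, was higher on 108 stimulated and 23 mock reads, a ratio of 4.02, while Rpap1, of the same assembly list, was 2.08-fold lower. Among 11 measured SAGA partners of the Taf genes, Kat2b, an acetyltransferase, and Usp22, the deubiquitinase, were lower by 2.56-fold and 2.65-fold, a share of 18.2% beside 25.1% of all measured genes, and none was higher. On the log2 scale the medians of the lists were 0.05 for pause and elongation factors, -0.65 for SAGA partners, -0.25 for Pol II assembly and 0.07 for the other Pol III genes.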

How the data were processed

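The deposited files, 1 per library, list splice junctions in mm9, and their counts of reads across each junction were used as the authors deposited them, with no normalization. Per the submitters' processing notes, TopHat, Cufflinks and mm9 were used, with versions and filters not given in the sources used here. Per the labels' protocols, total RNA was used and mean inserts were 199.014 bp for the stimulated and 211.79 bp for the mock library. Reads inside exons are not counted, so a value depends on how many junctions were found.

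GENCODE M21 is on GRCm38, and only 1.98% of junctions equalled an intron position there. A junction took a gene's name when its intron length fitted and at least 2 introns of 1 transcript lay at the same shift. This named 95511 of 124183 junctions (76.9%), and 245 fitted several genes and were left out. All 65 named members had the shift of a neighbouring gene. The spread between junctions of a gene was 2.02 times the counting variance over 4917 genes. A count of 3 reads equals 2.24 RPM in the stimulated and 2.61 in the mock library. With 1 library per group, 0 p-values were computed. Naming and calls were tested on simulated data with counting error only and the same build shift along each chromosome. That test cannot show how often unchanged genes are called in these libraries. All members called higher or lower and the member with the most reads of each group were named in full, other genes from set lists. The values of 1 called member are not reported here, though group counts include it. The members and lists were chosen with earlier results of these data known. Tools were Python 3.11.15, numpy 2.4.6, scipy 1.17.1, matplotlib 3.10.9 and, for the trimmed mean of M values, edgeR 4.0.16 in R 4.3.3.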

Additional observations from a re-analysis of the deposited data

How the results depend on the processing

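No paired analysis was possible because each group has 1 library and the labels give no replicate numbers. None of the members changed direction while called, and 12 of the 19 were called in the same direction under every alternative other than the 4-fold line: Gtf2f1, Gtf2f2, Gtf2i, Polr1a, Polr1b, Polr1c, Polr1e, Polr2f, Polr3d, Polr3e, Rrn3 and Ubtf. The cause of the changes below was not tested, except that a stricter line or read minimum leaves fewer genes. With a 4-fold line, 481 genes were higher and 633 lower, and 5 members were higher: 2 of Pol I, 2 of Pol III, 1 Gtf2 gene and 0 Pol II subunits, with 1 Gtf2 gene lower. With at least 50 reads, 1 member was lower, a Gtf2 gene, 3 Pol III members were higher and 0 lower, and 1 Pol II subunit was higher. With at least 10 reads, 1 Taf gene was higher. Scaling by the trimmed mean of M values or by the median of ratios put 22 members higher, the added ones being Gtf2h1, Gtf2h2, Taf15, Taf5l, Polr3f and Polr3k, which makes 5 Gtf2 and 2 Taf genes, while 1563 or 1547 of all genes were higher and 1410 or 1443 lower. From each gene's most-read junction, 1 Pol II subunit and 1 Taf gene were higher and 0 Pol III members lower. Without that junction, 1 Pol II subunit and 1 Gtf2 gene were lower, and 1 Taf gene and 3 Pol III members higher. From junctions listed in both libraries, 1 Gtf2 gene was lower. When each interval was widened for the spread among a gene's junctions, 1 Pol II subunit was higher. The median log2 ratio of all genes was -0.21, and became 0.028 with the trimmed mean of M values and 0.013 with the median of ratios, -0.23 with at least 10 reads, -0.16 with at least 50 and -0.13 from the most-read junction. Placing junctions by the neighbouring gene's shift was chosen after seeing the data. Calls on under 50 reads (Polr2d, Polr3gl, Gtf2h5, Gtf2ird2 and Gtf3c4) rest on the fewest counts.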
